A study of Mus musculus with 2 samples.

Results

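The genes described here encode the receptors for the colony-stimulating factors and for Flt3 ligand (Csf1r, Csf2ra, Csf2rb, Csf2rb2, Csf3r and Flt3) and 2 of the ligands (Csf1 and Csf2). They were taken by gene symbol from the count matrices, which list 32285 genes, and all 8 were found. Their levels were read in single cells from the livers of 2 groups of male C57Bl6/J bone marrow chimeras. The first group carried Trem2-/- marrow, the second Trem2+/+ littermate marrow, and Trem2 is a lipid-sensing receptor of macrophages. Recipients in both groups had been lethally irradiated, had recovered for 6 weeks after the transplant, and had then eaten a methionine- and choline-deficient (MCD) diet for 4 weeks, a model of steatohepatitis. Neither group held animals on a control diet, and the sources used here give no animal ages. Viable (7AAD-) CD45+ liver cells of 4 animals per genotype were pooled after sorting and run as 1 droplet library (10x Genomics 5′ v2) per genotype. The mice in a pool cannot be told apart, the sources used here do not say which part of Trem2 is missing, and recipient cells that survive irradiation keep their own alleles.

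The Trem2-/- library held 6362 cell barcodes and the Trem2+/+ library 7012, of which 5973 (Trem2-/-) and 6596 (Trem2+/+) were kept. Kept cells had a median of 2932 (Trem2-/-) and 2492 (Trem2+/+) unique molecular identifiers (UMIs, counted transcript molecules). Trem2 itself had 154 UMIs in the Trem2-/- library and 5478 in the Trem2+/+ library. The libraries shared 56 barcodes, 53 of them among kept cells of both. Clustering without the 8 genes gave 28 clusters, which were named from marker genes only as resembling a cell type. Endothelial-like cells passed the CD45+ sort in both libraries, as 16.2% (Trem2-/-) and 10.2% (Trem2+/+) of kept cells. Macrophage-like cells were 5.41% of kept cells (Trem2-/-) and 18.4% (Trem2+/+), and T cell-like cells were 18.5% (Trem2-/-) and 12.0% (Trem2+/+). With 1 library per genotype no test between genotypes could be made, so no p-value is given. The level of a gene is its UMI sum over the UMI total of the class, scaled to 1000000 (CPM). Ratios are log2 of the Trem2-/- level over the Trem2+/+ level, with a 95% interval in brackets, and every interval covers counting error only. A gene counted as past 1.5-fold in a class where the 2 libraries averaged at least 20 CPM and summed to at least 20 UMIs.

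Csf1r is the receptor tyrosine kinase that binds CSF-1 and interleukin-34, on which most tissue macrophages, Kupffer cells included, depend. GM-CSF, the product of Csf2, binds a ligand-specific alpha chain (Csf2ra) that pairs with a signalling beta chain. In mice that chain comes from Csf2rb, shared with the interleukin-3 and interleukin-5 receptors, and a neighbouring paralog, Csf2rb2, encodes a beta chain that serves interleukin-3. Csf3r, the G-CSF receptor, drives neutrophil production and survival, and Flt3 sustains dendritic cell development.

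The receptor genes differed in the cells that held them, and these cells were alike in the 2 libraries. Csf1r led in Kupffer-like cells, macrophage-like cells and Ly6C-high monocyte-like cells, Csf3r in neutrophil-like cells, and Flt3 in the dendritic cell-like classes. Csf2ra was spread over all the myeloid classes. Of the ligands, Csf1 was highest in neutrophil-like cells and Csf2 was almost wholly within T, NK/ILC1 and unnamed lymphoid clusters.

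**Figure D1:**
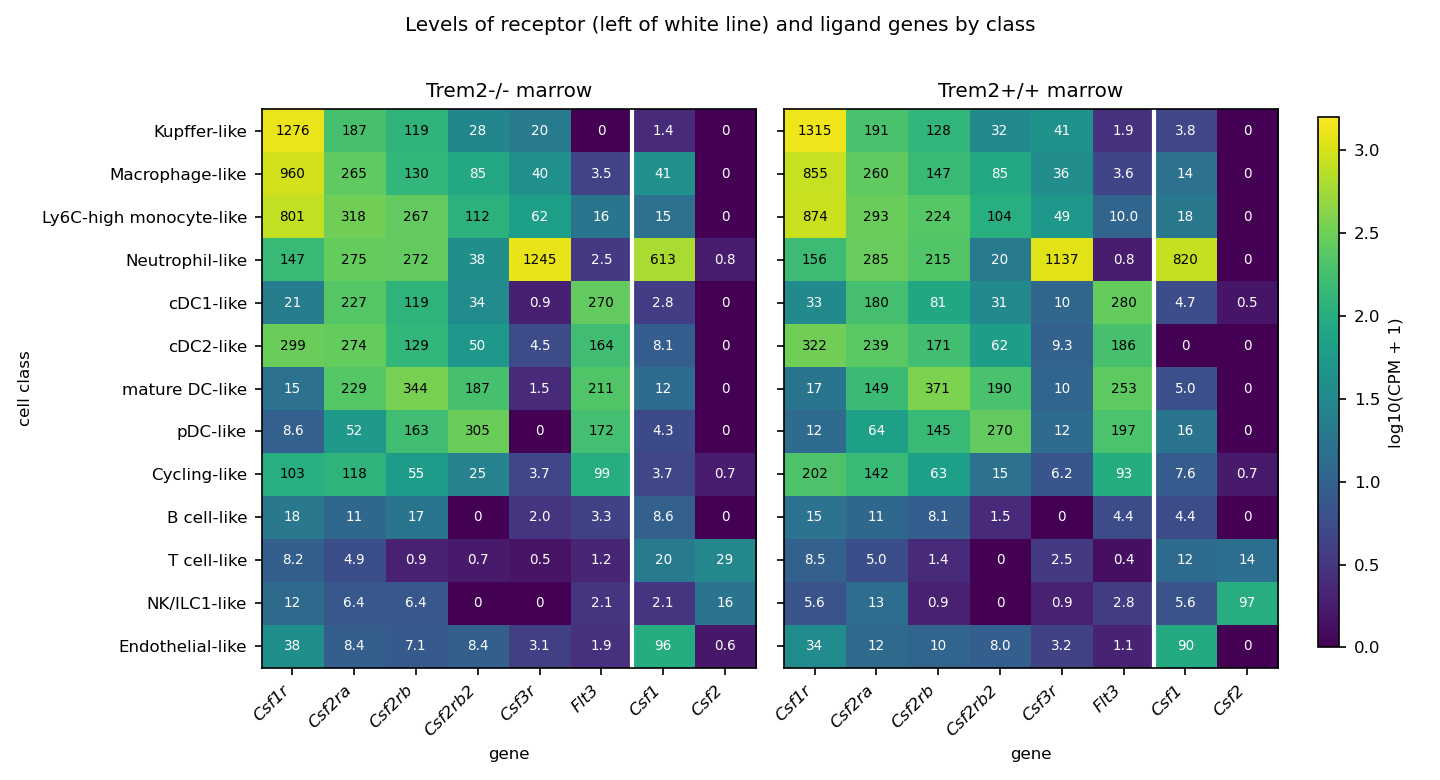
Level of each gene (columns) in 13 cell classes (rows) in the Trem2-/- library (left panel) and the Trem2+/+ library (right panel), with the CPM printed in each tile and the colour on a log10(CPM + 1) scale. The same columns light up in the same rows in both panels, with Csf1r at 1276 CPM in Kupffer-like cells of the Trem2-/- library and 1315 CPM in those of the Trem2+/+ library.

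Csf1r (ENSMUSG00000024621, mm10 chr18:61100598-61132149, plus strand, 22 exons) was highest in Kupffer-like cells, at 1276 CPM from 908 UMIs (Trem2-/-) and 1315 CPM from 701 UMIs (Trem2+/+). Macrophage-like cells had 960.0 CPM (Trem2-/-) and 855 CPM (Trem2+/+), and Ly6C-high monocyte-like cells had 801 CPM (Trem2-/-) and 874 CPM (Trem2+/+). The Kupffer-like level stood above the next class beyond counting error in both libraries. Macrophage-like cells came second in the Trem2-/- library, while in the Trem2+/+ library they and the monocyte-like cells had overlapping intervals. Lower down, cDC2-like cells had 299 CPM (Trem2-/-) and 322 CPM (Trem2+/+), and neutrophil-like cells had 147 CPM (Trem2-/-) and 156 CPM (Trem2+/+). Endothelial-like cells had 38.1 CPM (Trem2-/-) and 33.7 CPM (Trem2+/+), above the 10.9 CPM (Trem2-/-) and 9.71 CPM (Trem2+/+) of the summed B, T and NK/ILC1-like cells, which serve here as the lymphoid background. The 12 macrophage markers summed to 3142 CPM (Trem2-/-) and 3489.8 CPM (Trem2+/+) in endothelial-like cells and to 2328 CPM (Trem2-/-) and 2495 CPM (Trem2+/+) in neutrophil-like cells, and their part in the Csf1r of these classes was not tested.

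By cells rather than molecules, 87.0% (Trem2-/-) and 88.4% (Trem2+/+) of Kupffer-like cells had a Csf1r UMI, at median depths of 3220 (Trem2-/-) and 2977.5 (Trem2+/+) UMIs. The lymphoid background was 2.95% (Trem2-/-) and 2.58% (Trem2+/+) at median depths of 2918 (Trem2-/-) and 2372 (Trem2+/+) UMIs. After each cell was thinned to 1000 UMIs, the Kupffer-like share was 66.4% (Trem2-/-) and 65.4% (Trem2+/+), and the lymphoid share 1.20% (Trem2-/-) and 1.25% (Trem2+/+). Thinned shares were 52.7% (Trem2-/-) and 51.0% (Trem2+/+) in macrophage-like cells and 51.2% (Trem2-/-) and 57.4% (Trem2+/+) in monocyte-like cells. Thinning leaves out 847 (Trem2-/-) and 1132 (Trem2+/+) shallower cells over all classes.

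The macrophage-like class was made of 3 clusters, and 1 of them stood above the others in Csf1r beyond counting error in both libraries. The cluster led by Ms4a7 and C1q genes (cluster 5) had 1102 CPM (Trem2-/-) and 1047 CPM (Trem2+/+). The cluster led by Gpnmb and Mmp12 (cluster 17), genes of lipid-associated macrophages, had 577 CPM (Trem2-/-) and 548 CPM (Trem2+/+). The shallow cluster led by Cd5l (cluster 8) had 437 CPM (Trem2-/-) and 492 CPM (Trem2+/+). Csf1r in the Gpnmb-high cluster was thus about as far below that of the C1q cluster in both libraries.

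Within classes, Csf1r differed little between genotypes. The log2 ratio was -0.04 (-0.19 to 0.10) in Kupffer-like cells, 0.17 (0.09 to 0.24) in macrophage-like cells and -0.12 (-0.20 to -0.05) in monocyte-like cells. With the 3 macrophage-like clusters given equal weight in both libraries, the macrophage-like ratio was 0.020. It was past 1.5-fold in cDC1-like cells, at 21.4 CPM from 46 UMIs (Trem2-/-) and 33.2 CPM from 64 UMIs (Trem2+/+), a log2 ratio of -0.64 (-1.22 to -0.07). Both levels were above the summed lymphoid background. In the Trem2-/- library the cDC1-like interval overlapped that of B cell-like cells (17.9 CPM), which are part of that background. In cycling-like cells, which mix lineages, Csf1r had 103 CPM (Trem2-/-) and 202 CPM (Trem2+/+), and the 12 macrophage markers summed to 2196 CPM (Trem2-/-) and 5138 CPM (Trem2+/+). The part of that mixture in the cycling-like difference was not tested.

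Over all kept cells Csf1r was lower, at 282 CPM (Trem2-/-) and 437 CPM (Trem2+/+), a log2 ratio of -0.63 (-0.68 to -0.59). It was the only member past 1.5-fold of the 7 that passed the filter, all 8 but Csf2. Of all genes that passed, 4.64% were past 1.5-fold higher and 1.85% lower, and their median log2 ratio was 0.06. Kupffer-like, macrophage-like and monocyte-like cells together held 77.9% (Trem2-/-) and 85.2% (Trem2+/+) of Csf1r UMIs, and were 15.8% (Trem2-/-) and 30.5% (Trem2+/+) of kept cells. Macrophage-like cells alone held 27.2% (Trem2-/-) and 48.5% (Trem2+/+). When both libraries were given the class shares of the Trem2+/+ library, the Csf1r log2 ratio was -0.0053, so the difference over all cells was not seen at equal class shares.

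**Figure D2:**
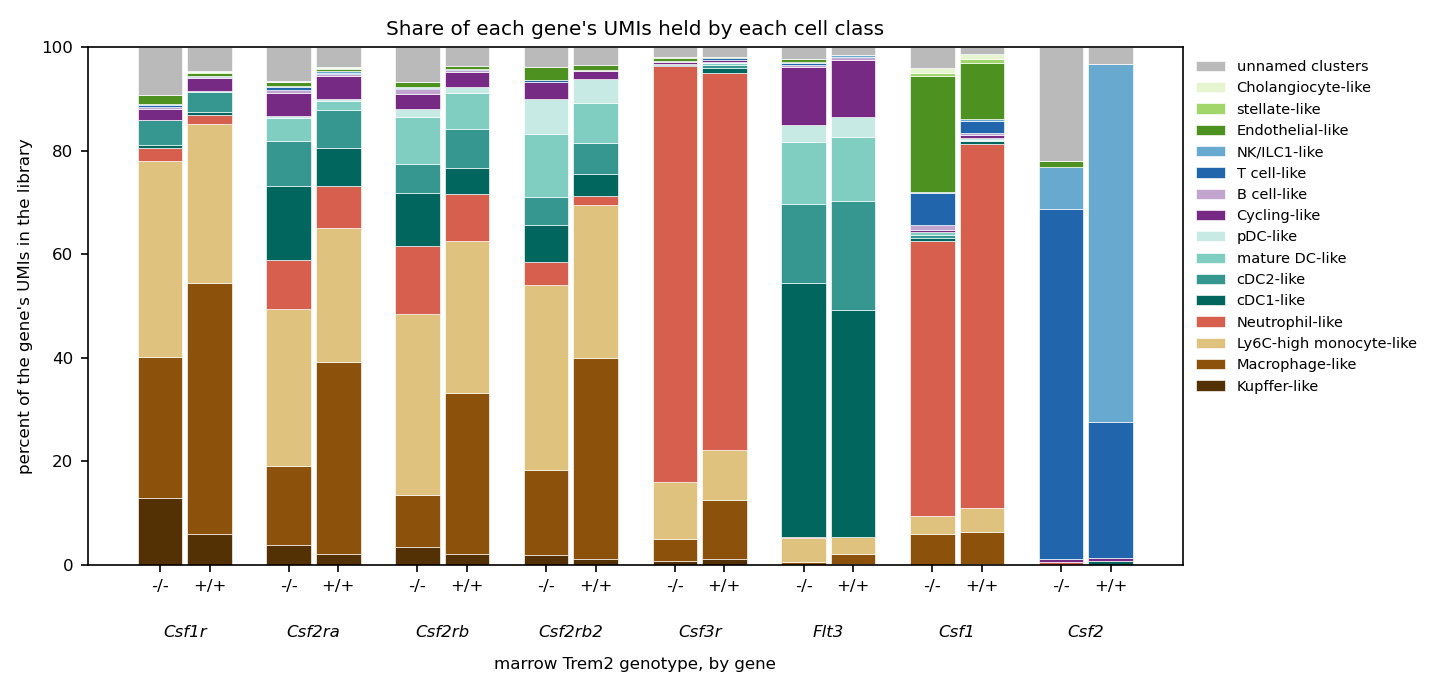
Percent of each gene's UMIs held by each cell class (stacked colours) in the Trem2-/- library (left bar of each pair) and the Trem2+/+ library (right bar). Macrophage-like cells hold 27.2% of Csf1r UMIs in the Trem2-/- bar and 48.5% in the Trem2+/+ bar, and neutrophil-like cells 53.1% (Trem2-/-) and 70.3% (Trem2+/+) of Csf1 UMIs.

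Cells outside the named classes also carried Csf1r. An unnamed cluster led by Neat1 and Kcnq1ot1 (cluster 9) had 939 CPM (Trem2-/-) and 921 CPM (Trem2+/+). A small cluster with both Clec4f, a Kupffer cell lectin, and the endothelial cadherin Cdh5 among its leading genes (cluster 25) had 682 CPM (Trem2-/-) and 637 CPM (Trem2+/+). Cluster 9 also carried the GM-CSF receptor chains, with Csf2ra at 433 CPM (Trem2-/-) and 345.5 CPM (Trem2+/+) and Csf2rb at 325 CPM (Trem2-/-) and 205 CPM (Trem2+/+). The unnamed clusters together held 9.22% (Trem2-/-) and 4.70% (Trem2+/+) of Csf1r UMIs.

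Csf2ra (ENSMUSG00000059326, mm10 chr19:61223957-61228429, minus strand, 12 exons), the GM-CSF receptor alpha chain, had a broad profile over the myeloid classes. Monocyte-like cells had 318 CPM (Trem2-/-) and 293 CPM (Trem2+/+), neutrophil-like cells 275 CPM (Trem2-/-) and 285 CPM (Trem2+/+), and macrophage-like cells 265 CPM (Trem2-/-) and 260.4 CPM (Trem2+/+). Kupffer-like cells had 187 CPM (Trem2-/-) and 191 CPM (Trem2+/+). After thinning, 26.5% (Trem2-/-) and 25.7% (Trem2+/+) of monocyte-like cells had a Csf2ra UMI, against 0.832% (Trem2-/-) and 1.07% (Trem2+/+) of lymphoid cells. Among monocyte-like, neutrophil-like and macrophage-like cells, neighbours in this order overlapped in both libraries. Kupffer-like cells were below macrophage-like cells beyond counting error in both. In the Trem2+/+ library the highest class was macrophage-like or neutrophil-like under 5 of 8 alternative filters and clusterings. Lymphoid cells had 6.43 CPM (Trem2-/-) and 8.19 CPM (Trem2+/+). Plasmacytoid dendritic cell-like cells had little Csf2ra, at 51.6 CPM from 12 UMIs (Trem2-/-) and 64.4 CPM from 16 UMIs (Trem2+/+).

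Between genotypes, Csf2ra was past 1.5-fold in none of the 6 classes where it passed the filter. The interval left out 0 in cDC1-like cells, with 227 CPM (Trem2-/-) and 180 CPM (Trem2+/+), a log2 ratio of 0.34 (0.14 to 0.54). In mature dendritic cell-like cells, with 88 cells in each library and so below the 100 set for comparison, it had 229 CPM from 153 UMIs (Trem2-/-) and 149 CPM from 89 UMIs (Trem2+/+).

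Csf2rb (ENSMUSG00000071713, mm10 chr15:78325752-78353847, plus strand, 14 exons) and Csf2rb2 (ENSMUSG00000071714, mm10 chr15:78282507-78305721, minus strand, 14 exons) lie 20030 bases apart with 0 annotated genes between them. Their coding sequences, 2688 and 2634 bases long, were identical at 92.9% of 2694 aligned columns. Of all 90-base stretches of the Csf2rb transcript, 8.43% also occur in the Csf2rb2 transcript, and 27.5% of those in its first 300 bases, where 5′ reads begin. Most of these bases are untranslated, since the 5′ untranslated regions are 258 (Csf2rb) and 293 (Csf2rb2) bases long. Reads from such stretches could not be given to 1 gene, so the split between the beta chain genes is uncertain. The first 120 coding bases are shown because they let the likeness of the paralogs be seen, with the 4 bases that differ in capitals.
Csf2rb: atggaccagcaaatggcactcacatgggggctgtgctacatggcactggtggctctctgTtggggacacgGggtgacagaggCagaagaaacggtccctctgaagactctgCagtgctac
Csf2rb2: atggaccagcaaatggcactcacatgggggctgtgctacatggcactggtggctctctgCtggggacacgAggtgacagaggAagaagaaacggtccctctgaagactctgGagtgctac

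The common beta chain, Csf2rb, was highest in mature dendritic cell-like cells, with 344 CPM (Trem2-/-) and 371 CPM (Trem2+/+). Neutrophil-like cells had 272 CPM (Trem2-/-) and 215 CPM (Trem2+/+), and monocyte-like cells 267 CPM (Trem2-/-) and 224 CPM (Trem2+/+). In the Trem2-/- library these 3 levels came in order with the neutrophil-like level overlapping both others, and in the Trem2+/+ library the mature dendritic cell-like level stood alone. Macrophage-like cells had 130 CPM (Trem2-/-) and 147 CPM (Trem2+/+), Kupffer-like cells 119 CPM (Trem2-/-) and 128 CPM (Trem2+/+), and lymphoid cells 5.23 CPM (Trem2-/-) and 3.05 CPM (Trem2+/+).

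Among the classes compared no Csf2rb ratio was past 1.5-fold, but 4 classes had intervals without 0. Csf2rb was higher in cDC1-like cells (119 CPM in Trem2-/- and 81.5 CPM in Trem2+/+, log2 ratio 0.55, 0.26 to 0.85), neutrophil-like cells (0.34, 0.11 to 0.58) and monocyte-like cells (0.25, 0.12 to 0.38). It was lower in cDC2-like cells, with 129 CPM (Trem2-/-) and 171 CPM (Trem2+/+), a log2 ratio of -0.41 (-0.72 to -0.10). Outside the named classes, the Neat1-led cluster 9 was past 1.5-fold, from 139 UMIs (Trem2-/-) and 82 UMIs (Trem2+/+), a log2 ratio of 0.66 (0.26 to 1.08).

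Csf2rb2 was highest in plasmacytoid dendritic cell-like cells, at 305 CPM from 71 UMIs in 42 cells (Trem2-/-) and 270 CPM from 67 UMIs in 68 cells (Trem2+/+). Mature dendritic cell-like cells had 187 CPM (Trem2-/-) and 190 CPM (Trem2+/+), monocyte-like cells 112 CPM (Trem2-/-) and 104 CPM (Trem2+/+), and macrophage-like cells 85.3 CPM (Trem2-/-) and 84.7 CPM (Trem2+/+). Those 3 classes were separated from each other beyond counting error in both libraries. Lymphoid cells had 3 Csf2rb2 UMIs (Trem2-/-) and 2 (Trem2+/+). Neutrophil-like cells were past 1.5-fold, with 38.2 CPM from 46 UMIs (Trem2-/-) and 19.5 CPM from 26 UMIs (Trem2+/+), a log2 ratio of 0.97 (0.24 to 1.72). The neutrophil-like cell with the most Csf2rb2, 4 UMIs (Trem2-/-) and 2 UMIs (Trem2+/+), had 0 neutrophil marker UMIs in each library. The part of other cell types in this difference was not tested.

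Within the macrophage-like class, both beta chain genes were higher in the Gpnmb-high cluster 17 than in the C1q cluster 5, where Csf1r was lower. Csf2rb had 213 CPM (Trem2-/-) and 223 CPM (Trem2+/+) in cluster 17, against 117 CPM (Trem2-/-) and 117 CPM (Trem2+/+) in cluster 5. Csf2rb2 had 149 CPM (Trem2-/-) and 137 CPM (Trem2+/+) in cluster 17, against 72.8 CPM (Trem2-/-) and 62.8 CPM (Trem2+/+) in cluster 5. For both genes the intervals of the 2 clusters were apart in each library, and the Csf1r intervals were apart in the other direction. The thinned share of cells with a Csf2rb UMI was likewise 27.8% (Trem2-/-) and 22.9% (Trem2+/+) in cluster 17, against 7.41% (Trem2-/-) and 10.6% (Trem2+/+) in cluster 5. The shallow cluster 8 had the lowest levels of Csf1r and of the beta chains, but not always beyond counting error. Its Csf2rb was at 67.3 CPM from 10 UMIs (Trem2-/-) and 71.7 CPM from 31 UMIs (Trem2+/+). Its Csf2rb2 was at 60.5 CPM from 9 UMIs (Trem2-/-) and 46.2 CPM from 20 UMIs (Trem2+/+). In both libraries its interval overlapped that of cluster 17 for Csf1r and that of cluster 5 for Csf2rb2. For Csf2rb it overlapped that of cluster 5 in the Trem2-/- library. Csf2ra showed no such order between clusters 17 and 5, with 244 CPM (Trem2-/-) and 313 CPM (Trem2+/+) in cluster 17 and 283 CPM (Trem2-/-) and 244 CPM (Trem2+/+) in cluster 5. Cluster 17 held 11.5% (Trem2-/-) and 19.9% (Trem2+/+) of macrophage-like cells, so a ratio over the whole class mixes them in unequal parts.

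Both neutrophil-like clusters carried the GM-CSF receptor chains. Csf2ra had 246 CPM (Trem2-/-) and 299.5 CPM (Trem2+/+) in the Retnlg-led cluster 4 and 321 CPM (Trem2-/-) and 266 CPM (Trem2+/+) in the Il1f9-led cluster 11. Csf2rb had 292 CPM (Trem2-/-) and 219 CPM (Trem2+/+) in cluster 4, a log2 ratio of 0.42 (0.12 to 0.71), and 240.3 CPM (Trem2-/-) and 209 CPM (Trem2+/+) in cluster 11, a ratio of 0.20 (-0.19 to 0.59). The interval of the ratio left out 0 in cluster 4 and not in cluster 11, and the difference between the clusters was not tested.

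The share of beta chain UMIs counted for Csf2rb2 differed by class, and in every class the intervals of the 2 libraries overlapped. It was 65.1% (Trem2-/-) and 65.0% (Trem2+/+) in plasmacytoid dendritic cell-like cells, 39.7% (Trem2-/-) and 36.6% (Trem2+/+) in macrophage-like cells, and 12.3% (Trem2-/-) and 8.33% (Trem2+/+) in neutrophil-like cells. Kupffer-like cells, at 19.0% (Trem2-/-) and 20% (Trem2+/+), were below macrophage-like cells in both. In cycling-like cells it was 31.5% (Trem2-/-) and 19.5% (Trem2+/+), and in unnamed cells 18.7% (Trem2-/-) and 30.3% (Trem2+/+). The part of unassigned reads in these shares was not tested.

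A UMI of the alpha chain and of either beta chain was found in the same cell, after thinning, in 8.53% (Trem2-/-) and 6.97% (Trem2+/+) of monocyte-like cells. The share was 7.00% (Trem2-/-) and 5.35% (Trem2+/+) in neutrophil-like cells and 9.41% (Trem2-/-) and 7.32% (Trem2+/+) in mature dendritic cell-like cells. In T cell-like cells it was 0 of 1078 (Trem2-/-) and 0 of 759 (Trem2+/+). Csf1r and Csf2ra were found together in 14.4% (Trem2-/-) and 15.4% (Trem2+/+) of monocyte-like cells, 10.5% (Trem2-/-) and 10.5% (Trem2+/+) of macrophage-like cells and 11.6% (Trem2-/-) and 14.96% (Trem2+/+) of Kupffer-like cells. At this depth the absence of a pair in a cell does not show that the cell lacks a chain.

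Promoter sequence from RefSeq (GRCm38.p6) was matched for 6 of the 8 genes and not used for Csf1r and Csf2rb. The 250 bases before each start were searched on both strands for GAGGAA, a core bound by PU.1, the transcription factor of the myeloid lineages, and for TTNNGNAA, a form bound by C/EBP factors. GAGGAA was in 3 of 6 windows (Csf2ra, Csf2rb2 and Csf3r) and TTNNGNAA in 2 of 6 (Csf2ra and Csf2). Of all 32851 windows, 23.3% held GAGGAA and 36.8% held TTNNGNAA. The stretches of the 3 receptor promoters are shown on the gene's strand with each match in capitals. In Csf2ra (chr19:61228419-61228478, minus strand, the 60 bases up to the start) the matches begin 31, 14 and 8 bases before the start. In Csf2rb2 (chr15:78305859-78305918, minus strand) the match begins 167 bases before it, and in Csf3r (chr4:126024558-126024587, plus strand) 86 bases before it. These starts are RefSeq's, and for Csf2ra and Csf3r they lie inside the gene coordinates given here from GENCODE, so the Csf2ra stretch overlaps the end of those coordinates and the Csf3r stretch lies within them.
Csf2ra: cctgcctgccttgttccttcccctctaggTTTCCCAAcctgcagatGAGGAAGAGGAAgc
Csf2rb2: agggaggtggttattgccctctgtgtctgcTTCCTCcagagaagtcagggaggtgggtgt
Csf3r: caacctccttcctgaGAGGAAggggctgtc
A match describes the letters only and is not a bound site.

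Csf3r (ENSMUSG00000028859, mm10 chr4:126024550-126044440, plus strand, 15 exons) was concentrated in neutrophil-like cells. They had 1245 CPM from 1500 UMIs (Trem2-/-) and 1137 CPM from 1515 UMIs (Trem2+/+), and held 80.3% (Trem2-/-) and 72.8% (Trem2+/+) of its UMIs. A Csf3r UMI was found in 86.3% (Trem2-/-) and 78.2% (Trem2+/+) of neutrophil-like cells, and in 66.9% (Trem2-/-) and 64.8% (Trem2+/+) after thinning. The lymphoid share was 0.246% (Trem2-/-) and 0.274% (Trem2+/+). Both neutrophil-like clusters carried the gene. The cluster led by Retnlg, S100a8 and S100a9 (cluster 4) had 1484 CPM (Trem2-/-) and 1354 CPM (Trem2+/+), and the cluster led by Il1f9 and Acod1 (cluster 11) had 854 CPM (Trem2-/-) and 841 CPM (Trem2+/+).

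Lower levels of Csf3r were seen in the mononuclear phagocytes. Monocyte-like cells had 62.4 CPM (Trem2-/-) and 49.3 CPM (Trem2+/+), and macrophage-like cells 39.9 CPM (Trem2-/-) and 35.8 CPM (Trem2+/+). For each 1000 UMIs of the neutrophil alarmins S100a8 and S100a9, monocyte-like cells had 376 (Trem2-/-) and 169 (Trem2+/+) Csf3r UMIs, where neutrophil-like cells had 13 (Trem2-/-) and 13.2 (Trem2+/+). In cDC1-like cells the ratio was 8.58 (Trem2-/-) and 15 (Trem2+/+). The part of neutrophil RNA in these levels was not tested.

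Between genotypes, Csf3r had a log2 ratio of 0.13 (0.03 to 0.23) in neutrophil-like cells and 0.34 (0.05 to 0.63) in monocyte-like cells. Kupffer-like cells were past 1.5-fold, with 19.7 CPM from 14 UMIs (Trem2-/-) and 41.3 CPM from 22 UMIs (Trem2+/+), a log2 ratio of -1.07 (-2.15 to -0.04). In cDC1-like cells 2 UMIs (Trem2-/-) and 20 UMIs (Trem2+/+) were counted, below the filter. The 10 neutrophil markers summed to 130.0 CPM (Trem2-/-) and 808 CPM (Trem2+/+) in that class, and the part of neutrophil RNA in its Csf3r difference was not tested.

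Flt3 (ENSMUSG00000042817, mm10 chr5:147330741-147400489, minus strand, 24 exons) was a gene of the dendritic cell-like classes. cDC1-like cells had 270 CPM from 581 UMIs (Trem2-/-) and 280 CPM from 540 UMIs (Trem2+/+), and held 49.0% (Trem2-/-) and 43.8% (Trem2+/+) of its UMIs. Mature dendritic cell-like cells had 211 CPM (Trem2-/-) and 253 CPM (Trem2+/+), plasmacytoid dendritic cell-like cells 172 CPM (Trem2-/-) and 197 CPM (Trem2+/+), and cDC2-like cells 164 CPM (Trem2-/-) and 186 CPM (Trem2+/+). The cDC1-like and mature dendritic cell-like levels overlapped in both libraries, and cDC2-like cells were lower than both in the Trem2+/+ library. Cycling-like cells had 98.6 CPM (Trem2-/-) and 93.5 CPM (Trem2+/+), and 1 of the 2 cycling-like clusters held 132 of 132 (Trem2-/-) and 134 of 136 (Trem2+/+) of those UMIs. After thinning, 26.7% (Trem2-/-) and 23.6% (Trem2+/+) of cDC1-like cells had a Flt3 UMI, and 0.364% (Trem2-/-) and 0.238% (Trem2+/+) of lymphoid cells. The lymphoid level was 1.79 CPM (Trem2-/-) and 1.90 CPM (Trem2+/+), and Kupffer-like cells had 0 UMIs (Trem2-/-) and 1 UMI (Trem2+/+).

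The Flt3 ratios between genotypes spanned 0 where the filter was passed, at -0.06 (-0.23 to 0.12) in cDC1-like cells and -0.18 (-0.46 to 0.10) in cDC2-like cells. Monocyte-like cells had 16.3 CPM from 54 UMIs (Trem2-/-) and 9.96 CPM from 41 UMIs (Trem2+/+), below the filter, with a log2 ratio of 0.71 (0.10 to 1.34).

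Turning to the ligands, Csf1 (ENSMUSG00000014599, mm10 chr3:107741048-107760469, minus strand, 9 exons), which encodes CSF-1, the main growth factor of macrophages, was highest in neutrophil-like cells. They had 613 CPM from 739 UMIs (Trem2-/-) and 820.3 CPM from 1093 UMIs (Trem2+/+), a log2 ratio of -0.42 (-0.56 to -0.28). They held 53.1% (Trem2-/-) and 70.3% (Trem2+/+) of Csf1 UMIs. The second largest share lay in the endothelial-like class, with 95.9 CPM (Trem2-/-) and 90.3 CPM (Trem2+/+), which held 22.3% (Trem2-/-) and 10.9% (Trem2+/+) of Csf1 UMIs. Kupffer-like cells, highest in the receptor, had 1 Csf1 UMI (Trem2-/-) and 2 (Trem2+/+).

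The neutrophil-like difference in Csf1 lay in 1 of the 2 clusters. In the Retnlg-led cluster 4, Csf1 had 228 CPM from 170 UMIs (Trem2-/-) and 495 CPM from 380 UMIs (Trem2+/+), a log2 ratio of -1.12 (-1.39 to -0.86). In the Il1f9-led cluster 11, where Csf1 was among the 10 leading genes, it had 1243 CPM (Trem2-/-) and 1263 CPM (Trem2+/+). The difference between these clusters' ratios was not tested. A Csf1 UMI was found in 23.9% (Trem2-/-) and 29.8% (Trem2+/+) of cluster 4 cells, and in 14.8% (Trem2-/-) and 20.9% (Trem2+/+) after thinning. After thinning, Csf1 and Csf3r were found together in 14.98% (Trem2-/-) and 18.9% (Trem2+/+) of all neutrophil-like cells. In cluster 11 the unthinned share with Csf1 was 61.4% (Trem2-/-) and 61.3% (Trem2+/+). Cluster 11 made up 38.2% (Trem2-/-) and 42.7% (Trem2+/+) of neutrophil-like cells, and the ratio with the 2 clusters weighted equally was -0.26. The other 9 leading genes of cluster 11 summed to 18668 CPM (Trem2-/-) and 16524 CPM (Trem2+/+) in cluster 4, and their part in the Csf1 difference was not tested.

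**Figure D3:**
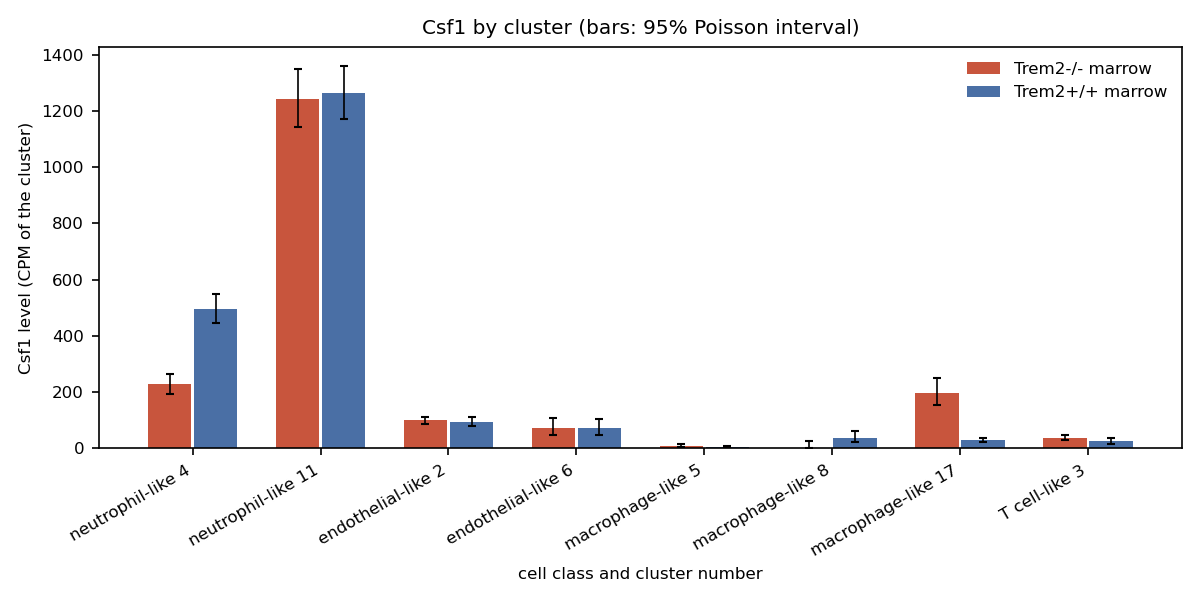
Csf1 level (CPM, vertical axis from 0) in 8 clusters of the neutrophil-like, endothelial-like, macrophage-like and T cell-like classes, Trem2-/- library in red on the left of each pair and Trem2+/+ library in blue, with 95% Poisson intervals as bars. In cluster 4 the Trem2-/- bar stands at 228 CPM and the Trem2+/+ bar at 495 CPM, with intervals apart, and in cluster 11 the bars are at 1243 and 1263 CPM with intervals that overlap.

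Csf1 in macrophage-like cells was past 1.5-fold, but it rested on 1 cell. The class had 81 UMIs in 13 cells (Trem2-/-) and 96 UMIs in 54 cells (Trem2+/+), or 40.9 CPM (Trem2-/-) and 14.4 CPM (Trem2+/+), a log2 ratio of 1.5 (1.06 to 1.94). A single Trem2-/- cell of the Gpnmb-high cluster 17 held 52 UMIs, 64.2% of the total, with 0 neutrophil marker UMIs. Without the top cell of each library the log2 ratio was 0.14, and with the mean of per-cell CPM it was -0.18.

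Among lymphoid cells Csf1 was low, and at full depth a larger share of Trem2-/- cells had it. In T cell-like cells it had 20.5 CPM from 87 UMIs (Trem2-/-) and 12.0 CPM from 34 UMIs (Trem2+/+), with most UMIs, 79 (Trem2-/-) and 26 (Trem2+/+), in the CD8 cluster led by Gzmk and Pdcd1 (cluster 3). That cluster was 50.4% (Trem2-/-) and 37.3% (Trem2+/+) of T cell-like cells, and within it Csf1 had 38.1 CPM (Trem2-/-) and 25.6 CPM (Trem2+/+), a log2 ratio of 0.57 (-0.09 to 1.27) that spans 0. Over the 7 T, NK/ILC1 and unnamed lymphoid clusters together, 4.15% (Trem2-/-) and 1.94% (Trem2+/+) of cells had a Csf1 UMI, and the log2 ratio was 0.85 (0.34 to 1.39). These shares were not thinned, and T cell-like cells had median depths of 3553 (Trem2-/-) and 3314 (Trem2+/+) UMIs. For B, T and NK/ILC1-like cells summed, thinned shares were 1.25% (0.802 to 1.85, Trem2-/-) and 0.594% (0.285 to 1.09, Trem2+/+), with overlapping intervals. Stellate or fibroblast-like cells had 10 UMIs in 13 cells (Trem2-/-) and 12 UMIs in 14 cells (Trem2+/+). Their levels were 197 CPM (Trem2-/-) and 132 CPM (Trem2+/+), from too few cells to set against the endothelial-like ones. The 10 neutrophil markers summed to 10543 CPM (Trem2-/-) and 254 CPM (Trem2+/+) in that class, and the part of neutrophil RNA in its Csf1 was not tested.

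Csf2 (ENSMUSG00000018916, mm10 chr11:54247271-54249667, minus strand, 4 exons), which encodes GM-CSF, was found in few cells. The libraries held 182 UMIs in 55 cells (Trem2-/-) and 149 UMIs in 21 cells (Trem2+/+), and 38 (Trem2-/-) and 16 (Trem2+/+) of these cells had a single UMI. Lymphoid clusters held 97.8% (Trem2-/-) and 98.7% (Trem2+/+) of the UMIs. Most came from a handful of cells: 7 cells (Trem2-/-) and 3 cells (Trem2+/+) with at least 5 UMIs held 118 (Trem2-/-) and 128 (Trem2+/+) UMIs. Among the myeloid classes, 1 Trem2-/- neutrophil-like cell and 1 Trem2+/+ cDC1-like cell had a single Csf2 UMI each. A Csf2 UMI was found in 0 of 323 macrophage-like cells (Trem2-/-), which allows a share of cells with a UMI of up to 0.929%, and in 0 of 1214 (Trem2+/+), which allows up to 0.247%. These limits hold for cells with a UMI and not for cells that express the gene.

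The named classes that held most Csf2 differed in direction between genotypes. T cell-like cells had 29.0 CPM from 123 UMIs in 26 cells (Trem2-/-) and 13.8 CPM from 39 UMIs in 10 cells (Trem2+/+), a log2 ratio of 1.07 (0.54 to 1.63), past 1.5-fold. NK/ILC1-like cells had 16 CPM from 15 UMIs in 8 cells (Trem2-/-) and 96.8 CPM from 103 UMIs in 6 cells (Trem2+/+), a log2 ratio of -2.60 (-3.49 to -1.81), also past 1.5-fold. A single Trem2+/+ NK/ILC1-like cell held 97 of the 103 UMIs, and a single Trem2-/- T cell-like cell held 54 of the 123. Without the top cell of each library, the log2 ratio was 1.44 in T cell-like cells and 1.05 (-0.51 to 2.77) in NK/ILC1-like cells.

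Among the T cell-like clusters, the one led by Cd40lg, Icos and Cd4 (cluster 13) had 104 Csf2 UMIs (Trem2-/-) and 13 (Trem2+/+), while the Gzmk-led CD8 cluster 3 had 18 (Trem2-/-) and 26 (Trem2+/+). An unnamed cluster led by Klra7, Gzmb and Cd160 (cluster 18) had 38 (Trem2-/-) and 4 (Trem2+/+). Over the 7 lymphoid clusters together, Csf2 had 27.5 CPM (Trem2-/-) and 33.6 CPM (Trem2+/+), a log2 ratio of -0.29 (-0.61 to 0.04). The share of these cells with a Csf2 UMI, not thinned, was 2.64% (1.97 to 3.46) in the Trem2-/- library and 1.42% (0.856 to 2.21) in the Trem2+/+ library. For B, T and NK/ILC1-like cells summed, thinned shares were 0.676% (0.361 to 1.15, Trem2-/-) and 0.238% (0.0648 to 0.607, Trem2+/+), with overlapping intervals. The sum ratio spans 0 and includes the Trem2+/+ cell with 97 of the 147 lymphoid UMIs of its library. Over all kept cells Csf2 had 7.32 CPM (Trem2-/-) and 5.55 CPM (Trem2+/+), a log2 ratio of 0.40 (0.08 to 0.72), and without the top cell of each library it was 1.41 (0.93 to 1.90), the direction of the shares.

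**Figure D4:**
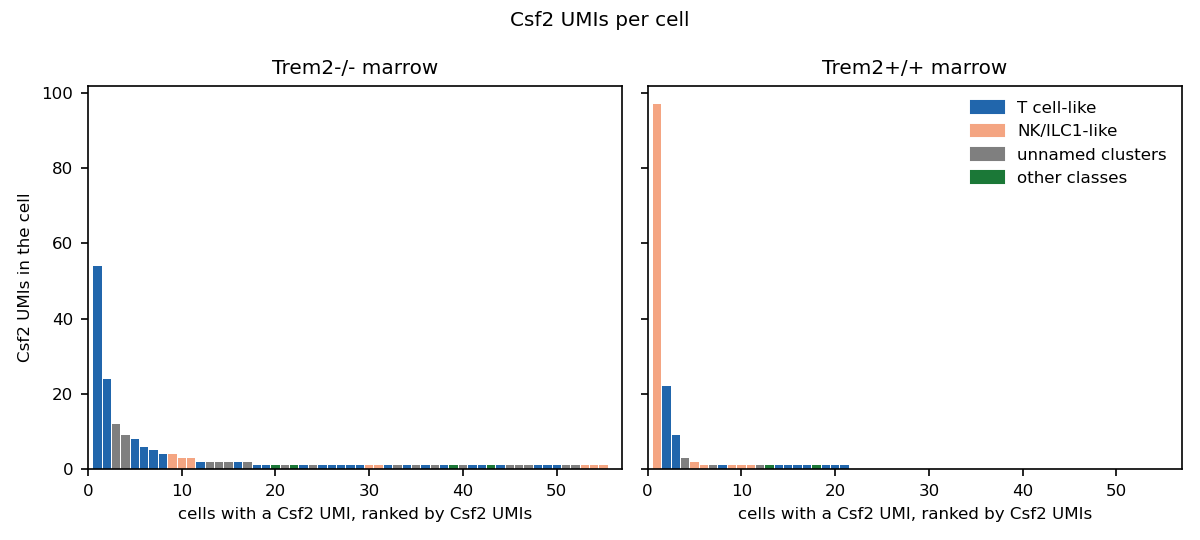
Csf2 UMIs in each cell that had any (bars, ranked, coloured by class), Trem2-/- library on the left and Trem2+/+ library on the right. The Trem2+/+ panel has 21 bars led by an NK/ILC1-like cell with 97 UMIs, and the Trem2-/- panel has 55 bars led by a T cell-like cell with 54 UMIs.

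Across the 10 classes compared, members past 1.5-fold were few and can be set beside all genes of the same class. In Kupffer-like cells 0 of the 5 members that passed the filter were higher and 1 was lower (Csf3r), where 9.29% of all genes were higher and 6.63% lower. In macrophage-like cells 1 of 6 was higher (Csf1) and 0 lower, where 2.45% of genes were higher and 1.82% lower. Neutrophil-like cells had 1 of 6 higher (Csf2rb2) and 0 lower, where 3.82% of genes were higher and 4.8% lower. In cDC1-like cells 0 of 5 were higher and 1 lower (Csf1r), where 1.58% of genes were higher and 1.39% lower. In T cell-like cells the only member that passed, Csf2, was higher, where 3.93% of genes were higher and 0.772% lower, and in NK/ILC1-like cells it was lower, where 5.16% were higher and 2.84% lower. Monocyte-like and cDC2-like cells had 0 of 5 members past 1.5-fold each, where 0.947% of genes were higher and 0.947% lower in monocyte-like cells and 4.7% higher and 3.4% lower in cDC2-like cells. Endothelial-like cells had 0 of 2, where 1.46% of genes were higher and 1.01% lower, and in B cell-like cells 0 of 8 members passed the filter, where 3.89% of genes were higher and 1.99% lower. Because a member with few UMIs passes more readily in the class where it is high, these counts describe the members and do not set them apart.

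**Figure D5:**
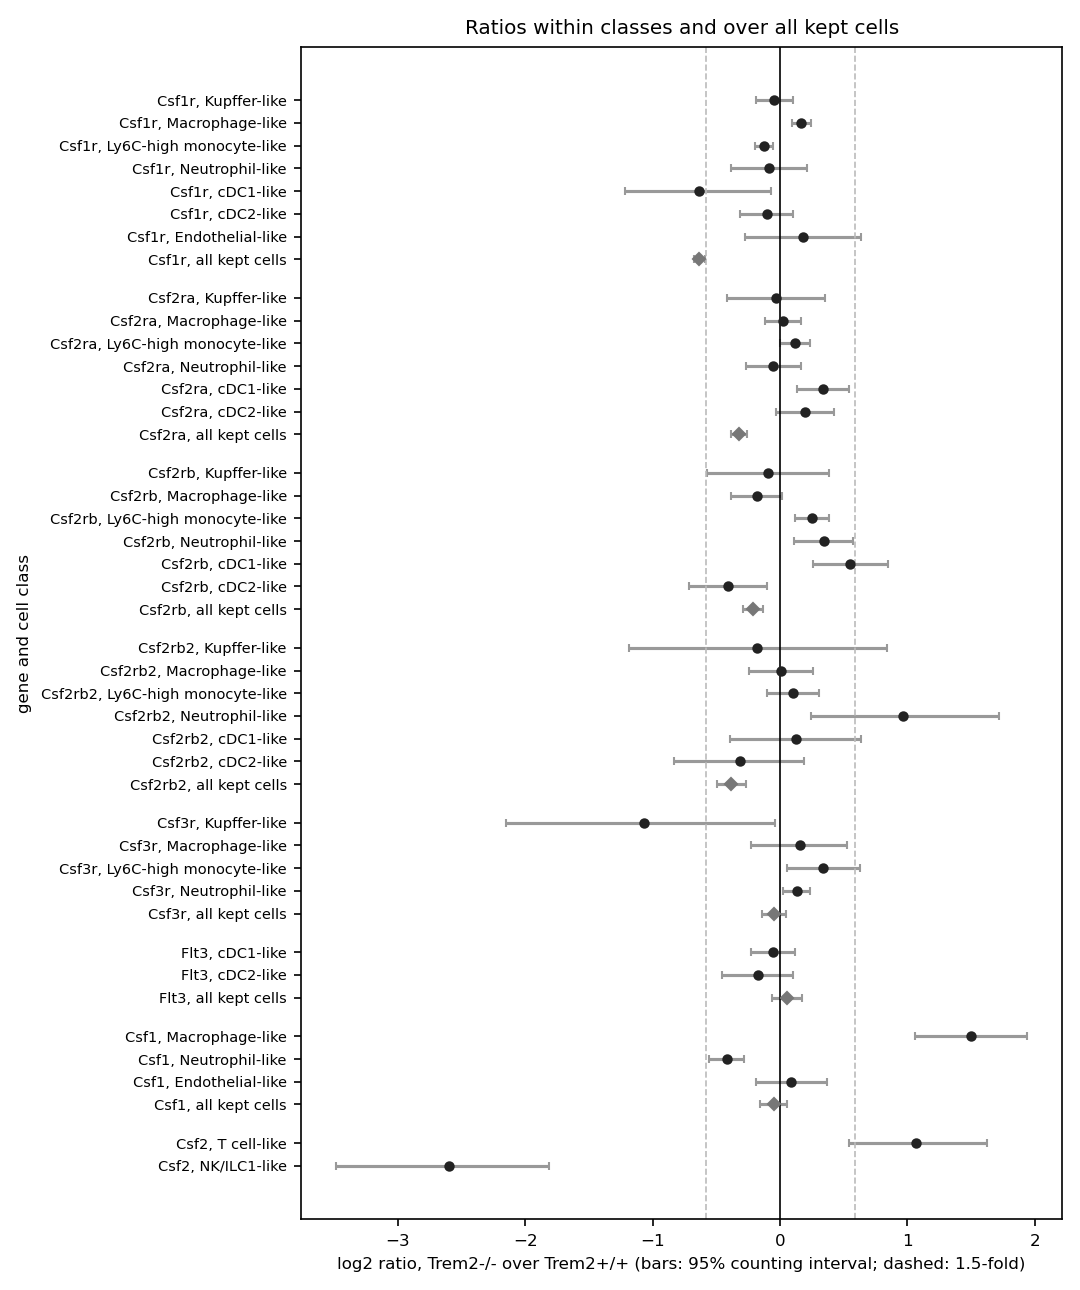
Log2 ratio of the Trem2-/- level over the Trem2+/+ level (horizontal axis) for each member and class that passed the filter (circles) and over all kept cells (diamonds), with 95% counting intervals as bars and dashed lines at 1.5-fold. Most circles lie between the dashed lines, and Csf1r over all kept cells lies at -0.63, left of its values of -0.04 in Kupffer-like and 0.17 in macrophage-like cells.

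For the other receptors the difference over all kept cells also changed with class shares. Csf2ra had 139 CPM (Trem2-/-) and 174 CPM (Trem2+/+), a log2 ratio of -0.32 (-0.39 to -0.26), and 0.059 at equal class shares. Csf2rb had 101 CPM (Trem2-/-) and 117 CPM (Trem2+/+), -0.21 (-0.29 to -0.14), and 0.052 at equal shares. Csf2rb2 had 41.5 CPM (Trem2-/-) and 54.0 CPM (Trem2+/+), -0.38 (-0.50 to -0.27), and 0.041 at equal shares. Csf3r, Flt3 and Csf1 had ratios over all cells of -0.05 (-0.14 to 0.04), 0.05 (-0.06 to 0.17) and -0.05 (-0.16 to 0.05), all spanning 0.

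Other genes of the same pathways were read in lists by role. Of 7 further ligands, none passed the filter in the phagocyte and dendritic cell-like classes compared. Flt3l, the ligand of Flt3, came from lymphoid cells, with 87.8 CPM (Trem2-/-) and 63.4 CPM (Trem2+/+) in T cell-like cells and 67.1 CPM (Trem2-/-) and 61.1 CPM (Trem2+/+) in NK/ILC1-like cells. Over all kept cells it had 29.7 CPM (Trem2-/-) and 17.6 CPM (Trem2+/+), a log2 ratio of 0.76 (0.59 to 0.93). Its log2 ratio was 0.47 within T cell-like cells and 0.14 within NK/ILC1-like cells, neither past 1.5-fold. The part of unequal class shares in the Flt3l difference over all kept cells was not tested. Kitl, stem cell factor, was highest in endothelial-like cells, with 119 CPM (Trem2-/-) and 81.2 CPM (Trem2+/+). The few cholangiocyte-like cells had 102 CPM from 15 UMIs (Trem2-/-) and 70.8 CPM from 14 UMIs (Trem2+/+), with intervals that overlapped the endothelial-like ones. Of 6 further receptors, 3 passed in Kupffer-like cells with 1 past 1.5-fold higher, the interleukin-3 receptor alpha chain Il3ra, from 20 UMIs (Trem2-/-) and 8 UMIs (Trem2+/+), where 9.29% of all genes were higher. With a stricter filter of 100 CPM and 100 UMIs 0 of the 6 passed there. None of those that passed in macrophage-like, monocyte-like, neutrophil-like, cDC1-like or cDC2-like cells was past 1.5-fold. In these classes at most 4.7% of all genes were higher and at most 4.8% lower.

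Genes that relay or brake these receptors were seldom past 1.5-fold in the myeloid classes, and the counts do not set them apart. Of all genes, 9.29% were higher and 6.63% lower in Kupffer-like cells, and 2.45% and 1.82% in macrophage-like cells. The shares were 0.947% each way in monocyte-like cells and 3.82% higher and 4.8% lower in neutrophil-like cells. They were 1.58% higher and 1.39% lower in cDC1-like cells and 4.7% and 3.4% in cDC2-like cells. Of 15 relay genes (Jak2, the Stat5 genes and others), 1 of the 12 that passed in Kupffer-like cells was past 1.5-fold, Mapk3, with 47.8 CPM (Trem2-/-) and 88.2 CPM (Trem2+/+), and 0 were past it in macrophage-like, monocyte-like, neutrophil-like, cDC1-like and cDC2-like cells. Of 12 brakes (the Socs genes, Cish, Cbl and others), 0 were past it in those classes except cDC2-like cells, where Ptpn6, a tyrosine phosphatase, was higher and the adaptor Dok1 lower. In Kupffer-like cells the list medians were 0.24 for relay genes and -0.14 for brakes, and in macrophage-like cells 0.05 for relay genes and 0.02 for brakes, beside 0.02 (Kupffer-like) and 0.01 (macrophage-like) for all genes.

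Early response targets showed more spread in some classes. In Kupffer-like cells 3 of the 8 that passed were higher and 2 lower, where 9.29% of all genes were higher and 6.63% lower, with a list median of 0.37 beside 0.02 for all genes of the class. With the stricter filter, 0 of the 3 that passed in Kupffer-like cells were past 1.5-fold, where 2.42% of genes were higher and 1.39% lower. Under that filter 1 of 4 was higher in macrophage-like cells, where 1.55% of genes were higher and 1.99% lower. In Kupffer-like cells Pim1, a survival kinase, had 77.3 CPM from 55 UMIs (Trem2-/-) and 30.02 CPM from 16 UMIs (Trem2+/+). Its log2 ratio was 1.36 (0.54 to 2.27). In the same class Myc had a log2 ratio of 1.27 (0.35 to 2.30) and Egr1 1.02 (0.40 to 1.67). The cyclin Ccnd2 was at -0.85 (-1.69 to -0.02) and Bcl2l1 at -0.63 (-1.59 to 0.32). In macrophage-like cells 3 of 9 were higher and 0 lower (Ccnd1 0.73, Ccnd2 0.67 and Egr1 0.63). The list median was 0.09 beside 0.01 for all genes, of which 2.45% were higher and 1.82% lower. Monocyte-like cells had 0 of 7 past 1.5-fold, where 0.947% of genes were higher and 0.947% lower. Neutrophil-like cells had 0 of 6, where 3.82% of genes were higher and 4.8% lower. In cDC1-like cells 0 of 7 were higher and 2 lower (Myc -0.69 and Egr1 -0.60), where 1.58% of genes were higher and 1.39% lower. In cDC2-like cells 1 of 8 was higher and 1 lower, where 4.7% of genes were higher and 3.4% lower. Egr1 was also past 1.5-fold higher in B, T, NK/ILC1 and endothelial-like cells, with log2 ratios of 1.21, 0.60, 0.86 and 1.17. Of all genes, 3.89% (B), 3.93% (T), 5.16% (NK/ILC1) and 1.46% (endothelial-like) were higher in these classes. The cause of the Egr1 differences was not tested.

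Profiles across 12 classes were compared by Pearson's r on log2(CPM + 10), averaged over the 2 libraries, among 5587 genes. These values are a description over classes that share libraries and depth. The genes most like Csf1r were Clec4a2 (r = 0.980), Soat1 (0.964) and Clec4a3 (0.962). For Csf2ra they were Rbm47 (0.972), Spi1 (0.95) and Csf2rb (0.949), and for Csf2rb they were Slc6a6 (0.954), Csf2ra and Bcl2a1a (0.948). Csf2rb2 was most like C9orf72 (0.945), Csf2rb (0.913) and Bcl2a1a (0.910). Csf3r was most like Arg2 (0.97), Kcnj2 (0.967) and Acod1 (0.962), and Flt3 most like Nectin1 (0.965), Tspan33 (0.961) and Ffar4 (0.936). For the ligands, Csf1 was most like Hdc (0.957), Lrg1 (0.951) and Map1lc3b (0.938), and Csf2 most like Ccl1 (0.987), Prf1 (0.925) and Apol7e (0.917). Among the 12 classes, which leave out the unnamed clusters, T cell-like and NK/ILC1-like cells held nearly all Csf2 UMIs. A single Trem2+/+ cell held 97 of the 103 NK/ILC1-like Csf2 UMIs of its library, so the r values of Csf2 rest on few cells.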

How the data were processed

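Per the file headers, the authors' deposited matrices hold whole-number UMI counts per gene and cell barcode from Cell Ranger 5.0.1, with no normalization. The submitters' processing notes name the mm10 build, and the annotation release and the strand setting of the counting are not given in the sources used here. Csf1r overlaps Hmgxb3, Flt3 overlaps Gm26597 and Csf2 overlaps Gm12223 on the opposite strand, so reads of these pairs may not be told apart. Coordinates came from GENCODE M21, which matched 99.8% of the 32285 gene IDs.

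Total counts were 25288032 (Trem2-/-) and 27238586 (Trem2+/+) UMIs. A barcode was kept if it had 200 genes or more, no more than 10% of its UMIs were mitochondrial and it was not called a doublet. Counts were scaled to 10000 per cell and logged, and 2000 variable genes without the 8 members and the Trem and Treml genes gave 30 principal components, 15 neighbours and Leiden clusters at resolution 1 (scanpy 1.11.5, leidenalg 0.10.2). The Leiden version was changed after the names and leading genes of a first clustering were seen, and the first is kept as an alternative. Scrublet called only 5 (Trem2-/-) and 2 (Trem2+/+) doublets, so it had not worked, and only these were removed as doublets. Clusters were named from marker lists, 5 stayed unnamed, and names are rebuilt, not the authors'. A class was compared where both libraries held 100 or more of its cells, and ordered where both held 50 or more. UMIs were summed per class and library. Levels have exact Poisson intervals, shares exact Clopper-Pearson intervals, and ratios exact conditional binomial intervals (SciPy 1.17.1). The ratio step was tested on simulated counts. Cells were thinned to 1000 UMIs for pairs of genes and for shares described as thinned, and a count of 0 is given a limit of 3 counts. Shares over the 7 lymphoid clusters together were not thinned. Alternatives were median-of-ratios scaling, mean per-cell CPM, other cell filters, doublet scores, clusterings and class weights. Leaving out top cells, joining lymphoid clusters and the first clustering were chosen after seeing the data. Named genes were the 8 members, members of the pathway and marker lists, and for each member the 3 genes with the highest mean r. The members and lists were chosen with earlier results of these data known. A list of lineage transcription factors is not reported here.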

Additional observations from a re-analysis of the deposited data

Results flagged for a closer look

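Csf2 went in opposite directions in the 2 named classes that held most of it. The log2 ratio was 1.07 (0.54 to 1.63) in T cell-like cells and -2.60 (-3.49 to -1.81) in NK/ILC1-like cells. The difference between these ratios was not tested, since each class has 1 library per genotype. A single Trem2+/+ NK/ILC1-like cell held 94.2% of the NK/ILC1-like Csf2 UMIs of its library, and without the top cell of each library that ratio was 1.05 (-0.51 to 2.77).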

How the results depend on the processing

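No paired analysis was possible because each genotype has 1 library. A value counts as reversed only where the reported ratio is past 1.5-fold and its sign changes. Of 328 within-class values under the alternatives, 307 stayed within the counting interval and 1 reversed, Csf1 in macrophage-like cells at -0.18 with mean per-cell CPM. Its other values were 1.95 to 2.37 in 4 reclusterings and 0.14 without the top cells. Of 74 within-class values added after seeing the data, 2 reversed: Csf2 in NK/ILC1-like cells at 1.05 without the top cells, and Csf2 in T cell-like cells at -0.29 with lymphoid clusters together. Csf2 in T cell-like cells was 2.56 under the stricter filter and 2.68 with the members among the variable genes, and in NK/ILC1-like cells -1.21 with all barcodes, -1.23 at resolution 2 and -1.38 with mean per-cell CPM. Csf1r in endothelial-like cells, at 0.18 and not past 1.5-fold, was -0.34 under the stricter filter and -1.28 with each library clustered alone. Clustering each library alone gave no value for macrophage-like and cDC2-like cells, which it did not name in both libraries, and equal cluster weights gave none for classes of 1 cluster. The causes were not tested. Over all kept cells 19 of 64 values left the counting interval, and Csf1r, the only member past 1.5-fold, kept its sign. With the class shares of the Trem2+/+ library in both, the ratios were -0.0053 for Csf1r, 0.059 for Csf2ra, 0.052 for Csf2rb, 0.041 for Csf2rb2, 0.11 for Csf3r and -0.25 for Csf2, so that their signs changed except for Csf1r (Csf2 was 0.40 as reported), and Flt3 changed sign to -0.06. Without the macrophage-like class they were -0.42 for Csf1r, -0.19 for Csf2ra, -0.12 for Csf2rb, -0.22 for Csf2rb2, -0.23 for Csf3r, -0.22 for Flt3 and -0.34 for Csf1. With mean per-cell CPM they were -0.39 for Csf2ra, -0.17 for Csf3r, -0.30 for Flt3, -0.41 for Csf1 and 0.77 for Csf2. Median-of-ratios scaling gave -0.69 for Csf1r, and leaving out the top cells 1.41 for Csf2. The highest class of a gene, among classes with 50 or more cells in both libraries and so without the plasmacytoid dendritic cell-like class, stayed the same in 118 of 128 cases. Counting error is the only error measured, and differences between mice or pools cannot be told apart from those between genotypes. With a filter of 100 CPM and 100 UMIs the share of genes past 1.5-fold was lower in Kupffer-like cells, at 2.42% higher and 1.39% lower.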
